A study of Mus musculus with 8 samples.

Results

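The 8 genes described here, Ly6a, Ctgf, Cyr61, Ankrd1, Amotl2, Clu, Anxa1 and Areg, are commonly read together as a mark of regenerating or fetal-like intestinal epithelium with active YAP signalling. They were taken by symbol from the transcript tables of a mouse colon tumour study, and all 8 were found among 20275 gene symbols. YAP and TAZ are co-activators that the Hippo kinases keep out of the nucleus. When released they bind TEAD transcription factors and switch on genes of growth, matrix and repair. In injured gut, such a programme is known to replace the crypt stem cell programme for a time, and the same genes are also used by fibroblasts and other stromal cells.

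The experiment addressed what happens in a colon tumour when its host fibroblasts lose ZEB1, a transcription factor. Tumours grew from genetically altered mouse organoids placed orthotopically into FibCtrl hosts, which lacked the Cre transgene, or FibΔZeb1 hosts, which carried it, and hosts of both groups received a tamoxifen diet. The labels name the transgene Col1a1Cre-ERT2 and the methods of the study name Col1a2-CreERT2 with floxed Zeb1, so deletion was aimed at collagen I-expressing host cells and not at the tumour cells. There were 4 mice per group, each on a single plate of 384 wells, and fibroblast, EPCAM-positive and CD45-positive cells had been sorted onto it. The age of the mice was not given in the labels.

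Of 3072 wells, 1831 were kept, and total transcripts per plate ranged from 1759509 to 7079527. Gates of single wells were not used, and classes were rebuilt from the transcripts. An Epcam-positive well held at least 2 Epcam and under 2 Ptprc transcripts and lay in no non-epithelial cluster, which gave 378 wells. FibCtrl plates 1 to 4 held 48, 22, 40 and 50 of them, and the 4 FibΔZeb1 plates held 32, 63, 67 and 56. Clusters made without the 8 genes gave 131 fibroblast-like, 34 mesothelial-like, 46 pericyte-like and 789 immune-like wells. Levels are given as counts per 1000000 transcripts of a class on a plate (CPM), without spike-in and mitochondrial transcripts. The 12 epithelial markers summed to 4587 to 10097 CPM over the Epcam-positive plates, against 86.4 to 375 CPM in fibroblast-like and 405 to 1256 CPM in the mesothelial-like wells compared below. The 12 fibroblast markers reached 3471 CPM in Epcam-positive wells of FibCtrl 1, against 365 to 2058 CPM on the other 7 plates. Mature colon markers reached 8186 CPM on FibΔZeb1 2, 3956 CPM on FibCtrl 2 and 2221 CPM on FibCtrl 3. Without the mature colon cluster, 349 Epcam-positive wells remained and 0 of 10099 genes were called between the genotypes by edgeR. Otherwise the part of these other cell types in the results was not tested. Mesothelial-like wells also held 26984 to 52356 CPM of fibroblast markers on the 3 plates used. Epcam-positive wells held 697 to 2180 CPM of mesothelial markers such as Msln, Krt19 and Cpe.

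The label "epithelial" held for the list only in part. Areg was higher in Epcam-positive wells than in both stromal classes that were compared, fibroblast-like and mesothelial-like. Its levels there overlapped those of pericyte-like and immune-like wells over plates. In contrast, Ctgf, Cyr61 and Amotl2 were higher in fibroblast-like than in Epcam-positive wells, and Clu was highest in mesothelial-like wells. Ly6a and Anxa1 were abundant in both Epcam-positive and fibroblast-like wells. Ankrd1 was close to 0 outside a few wells.

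Upstream sequences are shown for 2 genes at opposite ends of this pattern, Cyr61, which was high in stroma, and Areg, which was high in epithelium. The windows are the 250 bases before the RefSeq start on GRCm38.p6, chr3:145649986-145650235 on the minus strand for Cyr61 (listed as Ccn1) and chr5:91139349-91139598 on the plus strand for Areg. Capitals mark GGAATG or its reverse complement CATTCC, the core of the motif that TEAD factors bind.
Cyr61: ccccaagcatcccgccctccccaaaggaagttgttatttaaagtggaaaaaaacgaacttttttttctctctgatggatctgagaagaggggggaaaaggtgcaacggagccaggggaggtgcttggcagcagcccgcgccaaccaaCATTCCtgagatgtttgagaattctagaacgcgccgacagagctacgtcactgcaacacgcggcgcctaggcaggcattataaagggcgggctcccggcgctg
Areg: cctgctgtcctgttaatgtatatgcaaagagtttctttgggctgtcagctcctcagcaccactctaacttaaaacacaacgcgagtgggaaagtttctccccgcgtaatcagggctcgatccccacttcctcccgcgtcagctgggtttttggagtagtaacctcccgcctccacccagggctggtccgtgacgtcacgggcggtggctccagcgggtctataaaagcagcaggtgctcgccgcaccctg
The Cyr61 window held 1 match, 103 bases before the start, and the Areg window held none. Of 5 members with an entry in the RefSeq table, Ankrd1 had 2 matches, Amotl2 1 and Anxa1 1 in the same length. The windows of these 3 genes overlap exons of the GENCODE annotation, so they are not wholly upstream of the annotated genes, while those of Cyr61 and Areg overlap none. Searched on both strands, the motif occurred in 12.6% of 32851 such windows, and a match is a description and not a binding site. Ly6a, Ctgf and Clu had no entry.

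**Figure D1:**
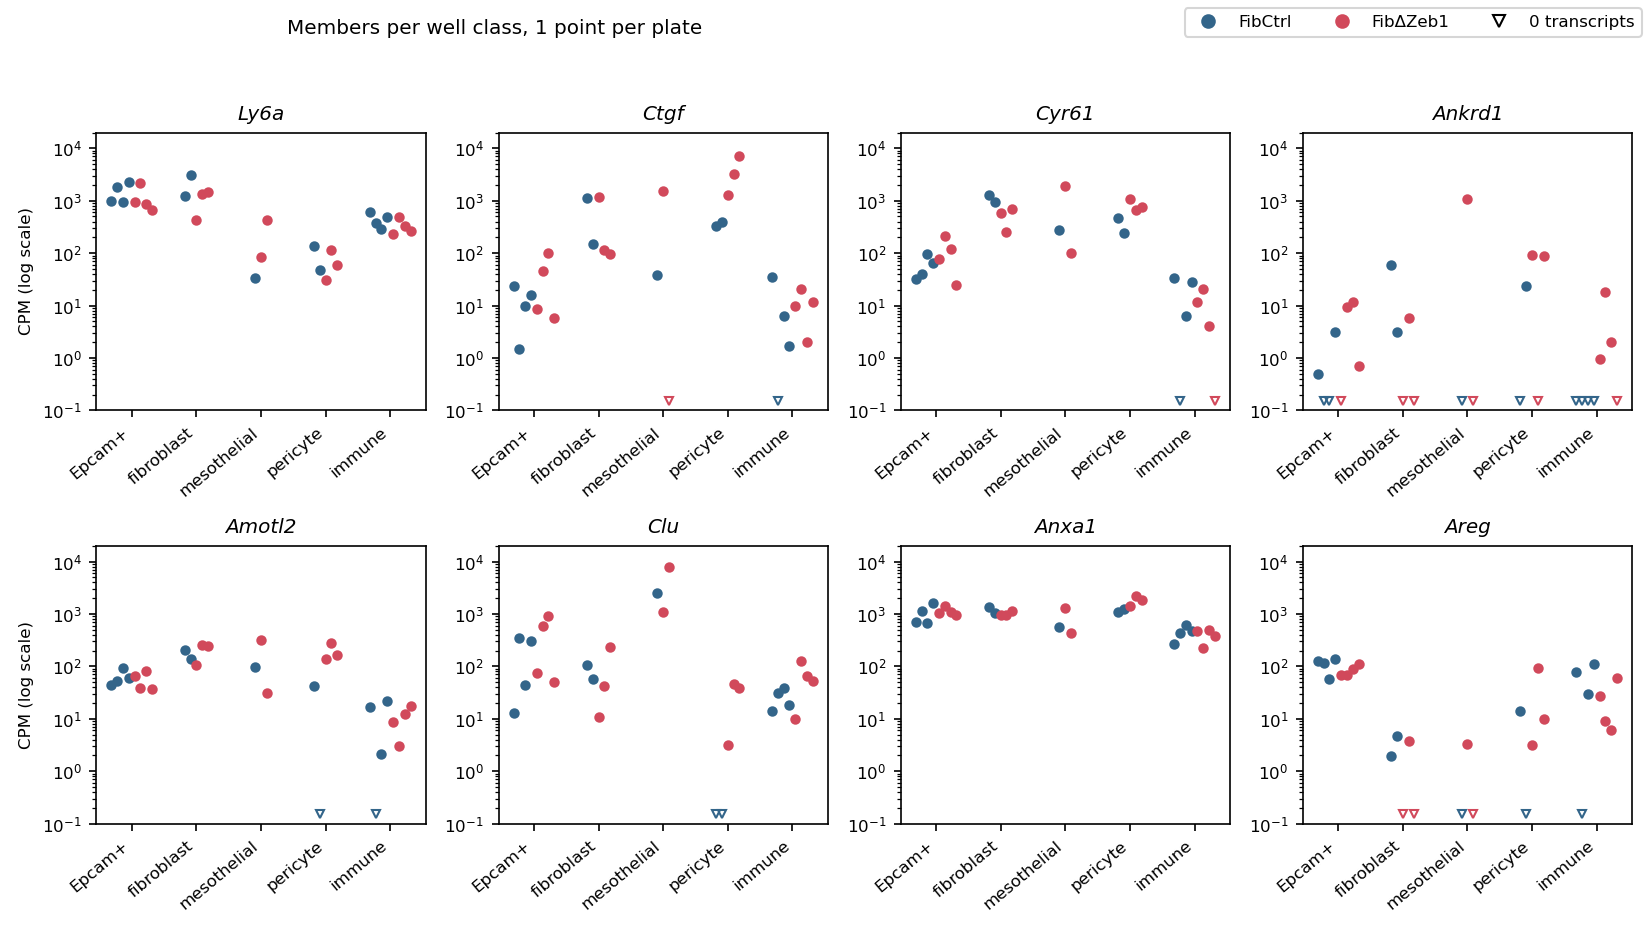
Level of each gene (CPM, log axis) per well class, with 1 point per plate coloured by genotype and open triangles for 0 transcripts. Areg lay at 57.5 to 136 CPM in Epcam-positive wells and at 0 to 4.63 CPM in fibroblast-like wells, whereas Cyr61 and Amotl2 were higher in fibroblast-like wells on every plate shown.

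Ctgf (Ccn2, GRCm38 chromosome 10, 24595442 to 24598683) and Cyr61 (Ccn1, chromosome 3, 145646976 to 145649981) encode secreted matricellular proteins and are widely used readouts of YAP. In Epcam-positive wells Ctgf was at 23.9, 1.49, 9.59 and 16 CPM on FibCtrl plates, in the order of replicates, and at 8.71, 44.7, 99.7 and 5.70 CPM on FibΔZeb1 plates. These levels were low on 6 plates and high on FibΔZeb1 2 and 3, with the groups overlapping. In fibroblast-like wells, over the 5 plates with at least 10 of them, Ctgf was at 1109 and 150 CPM on FibCtrl 1 and 4, and at 1178, 117 and 97.3 CPM on FibΔZeb1 1, 3 and 4. On each of the 5 plates the epithelium was lower.

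Cyr61 in Epcam-positive wells was at 32.2, 40.2, 95.9 and 65.0 CPM on FibCtrl plates and at 77.2, 208, 119 and 24.9 CPM on FibΔZeb1 plates. In fibroblast-like wells it was at 1279 and 936 CPM on FibCtrl 1 and 4 and at 577, 257 and 681 CPM on FibΔZeb1 1, 3 and 4. No Epcam-positive plate reached the lowest fibroblast-like one. Amotl2 (chromosome 9, 102716672 to 102733418), an angiomotin family protein that binds YAP and is also its target, showed the same order, with 59.5 ± 20.4 CPM in Epcam-positive wells (SD, n = 8) and 190 ± 67.1 in fibroblast-like wells (SD, n = 5).

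The classes were compared on the 5 plates with both, using edgeR's quasi-likelihood test with plate as a block and Benjamini-Hochberg adjustment over 9168 genes. Of all genes tested, 19.7% were called higher and 22.0% lower in Epcam-positive wells at an adjusted p under 0.05, shares that include the genes that made the clusters. Of the 7 members tested 1 was higher and 3 were lower. Ctgf was lower by a log2 fold change of -4.46 ± 0.88 (SE, adjusted p = 0.00261), Cyr61 by -4.06 ± 0.58 (adjusted p = 0.000354) and Amotl2 by -2.13 ± 0.29 (adjusted p = 0.000231), each on 5 of 5 plates. Areg was higher by 5.05 ± 0.40 (adjusted p = 7e-06), also on 5 of 5 plates. Ly6a had -0.75 ± 0.31 (adjusted p = 0.0778), Anxa1 -0.50 ± 0.23 (adjusted p = 0.115) and Clu 0.42 ± 1.16 (adjusted p = 0.807). Ly6a was not called with all 5 plates, and without FibΔZeb1 1 it was called lower, at -1.11 with an adjusted p of 0.00243.

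Areg (chromosome 5, 91139599 to 91148432), the EGF receptor ligand amphiregulin, varied little between plates in the epithelium, at 96.1 ± 29.6 CPM (SD, n = 8). It was at 124, 115, 57.5 and 136 CPM on FibCtrl plates and at 68.5, 67.5, 88.2 and 112 CPM on FibΔZeb1 plates. The groups overlapped. On the 5 plates used for the test, 849 transcripts among 7709485 in Epcam-positive wells stood against 7 among 3059624 in fibroblast-like wells, a ratio of 48.1 (95% exact interval of counting error 23.3 to 120). Immune-like wells held 40.5 ± 39.9 CPM (SD, n = 8), with a range of 0 to 113 CPM. Pericyte-like wells held 24.2 ± 39.4 CPM (SD, n = 5), with a range of 0 to 94 CPM. Both classes overlapped Epcam-positive wells over plates.

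Mesothelial-like wells could be compared on FibCtrl 3 and FibΔZeb1 2 and 4, which held 14, 4 and 9 of them. Only 9, 1 and 9 of these wells held under 2 Epcam and under 2 Ptprc transcripts, and all were used. Clu (chromosome 14, 65968483 to 65981547), the extracellular chaperone clusterin, was at 2460, 1095 and 7740 CPM in the mesothelial-like wells of these plates. Every one of the mesothelial-like wells used had a Clu transcript. In the Epcam-positive wells of the same plates it was at 45, 585 and 51.3 CPM, and the classes did not overlap. Of 9419 genes tested with plate as a block, 8.62% were called higher and 10.9% lower in Epcam-positive wells. Of the 7 members tested 2 were higher and 3 lower.

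Clu was lower in Epcam-positive than in mesothelial-like wells by a log2 fold change of -5.26 ± 1.22 (edgeR, adjusted p = 0.0115). Without FibΔZeb1 4 this was -3.54 and the call was lost (adjusted p = 0.0858). Cyr61, at 275, 1881 and 101 CPM in mesothelial-like wells, was lower in the epithelium by -2.56 ± 0.38 (adjusted p = 0.000916) on 3 of 3 plates, and without the plate block the adjusted p was 0.0588. Ctgf had -3.54 ± 0.84 (adjusted p = 0.0133) but was lower in the epithelium on 2 of 3 plates, and DESeq2 gave an adjusted p of 0.351. Its levels in mesothelial-like wells were 38.2, 1515 and 0 CPM, and 1 well of FibΔZeb1 2 held 443 of the 451 transcripts on that plate. The same well held 313 of 314 Ankrd1, 399 of 560 Cyr61 and 79 of 96 Amotl2 transcripts. With only wells under 2 Epcam and under 2 Ptprc transcripts, FibCtrl 3 and FibΔZeb1 4 remained. Ctgf was then at 68.1 and 0 CPM and Cyr61 at 288 and 101 CPM in mesothelial-like wells.

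Ly6a was higher in Epcam-positive than in mesothelial-like wells by 3.15 ± 0.78 (edgeR, adjusted p = 0.0167). It was at 959, 2208 and 654 CPM in the former and 34.1, 84 and 436 CPM in the latter, on 3 of 3 plates, and without FibCtrl 3 the adjusted p was 0.0559. Areg was higher by 5.53 ± 0.78 (adjusted p = 0.00059), with 327 transcripts against 1, a ratio of 73.3 (95% exact interval 13.1 to 2900). Amotl2 had -1.41 ± 0.60 (adjusted p = 0.14) and Anxa1 0.20 ± 0.32 (adjusted p = 0.754).

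Between the stromal classes, tested on the same 3 plates over 3078 genes, 0.747% of genes were called higher and 1.17% lower in mesothelial-like wells. Of the 6 members tested 1 was called, Clu, which was higher by 4.42 ± 0.68 (edgeR, adjusted p = 0.00101). Ctgf had -2.48 ± 1.10 (adjusted p = 0.458), and without FibΔZeb1 2, the plate of the well with 443 transcripts, -4.64 (adjusted p = 0.00085). Ly6a had -1.47 ± 0.75 (adjusted p = 0.596), and Cyr61, Amotl2 and Anxa1 lay between -0.20 and 0.13. The fibroblast-like sums on these plates held only 31686, 63908 and 225927 transcripts.

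**Figure D2:**
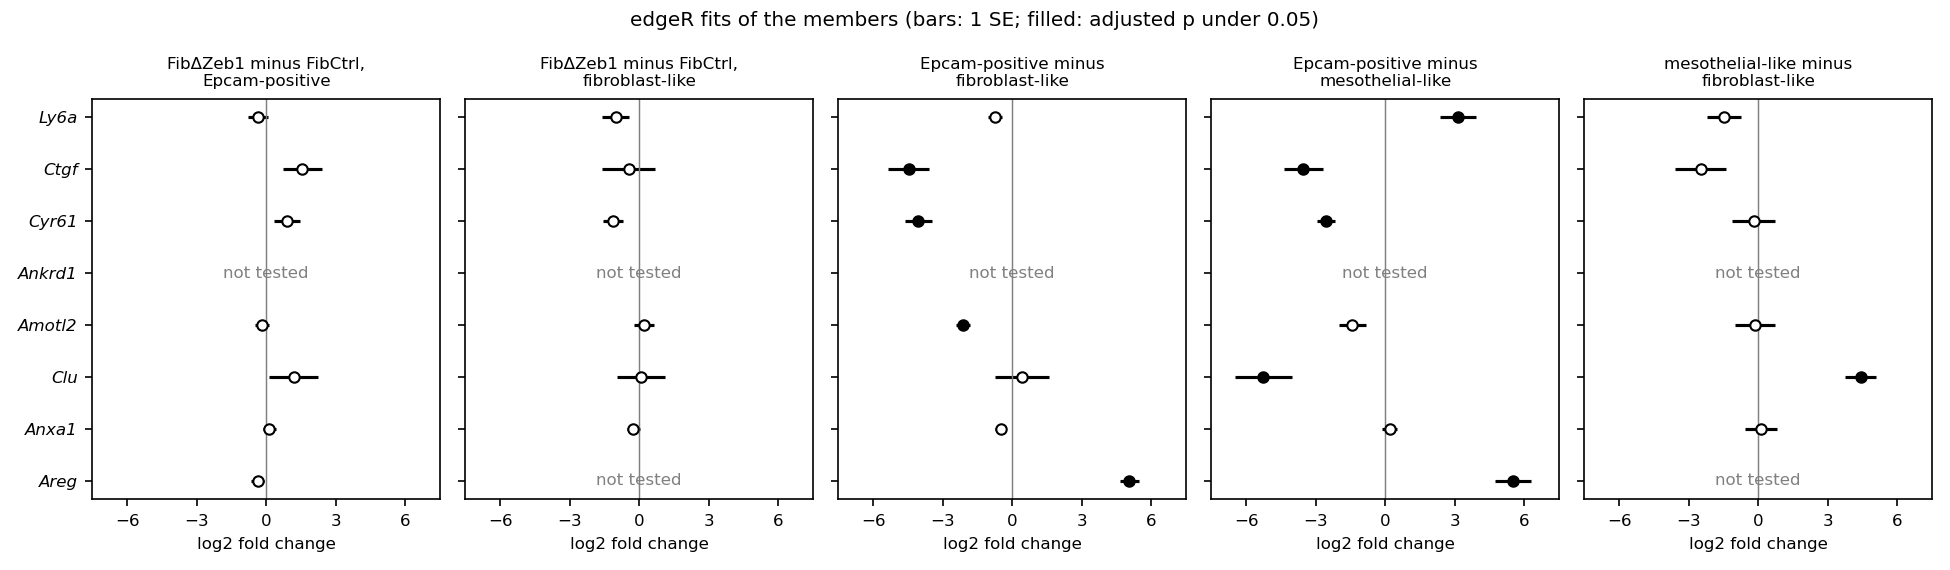
Log2 fold change of each gene in the 5 comparisons (edgeR), with bars of 1 SE and filled points at an adjusted p under 0.05. Filled points occur only in the 3 panels that compare classes, and every point of the 2 genotype panels is open.

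Ankrd1 (chromosome 19, 36111961 to 36120099), a nuclear ankyrin repeat protein and YAP target, did not pass the filter on low counts in any comparison. In Epcam-positive wells it was at 0.488, 0, 0 and 3.07 CPM on FibCtrl plates and at 0, 9.54, 11.5 and 0.712 CPM on FibΔZeb1 plates, 41 transcripts in all. A single well of FibΔZeb1 3 held 14 of the 21 on that plate, together with 127 of its 182 Ctgf transcripts, 43 Amotl2 and 42 Cyr61. That well held 51 Epcam transcripts and 20 from the fibroblast markers. In fibroblast-like wells of FibCtrl 1 Ankrd1 was at 59.9 CPM, with 35 of 61 transcripts in 1 well.

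Stromal wells were themselves mixed. The fibroblast-like cluster led by Dpt, Sfrp4 and Efemp1 (70 wells) held Ly6a at 2236 CPM, Ctgf at 266, Cyr61 at 874 and Clu at 111. The cluster led by Col10a1, Col8a1 and Tnc (34 wells) held Ly6a at 207 CPM, Ctgf at 1328, Cyr61 at 796 and Clu at 11.6. On the 5 plates with at least 10 fibroblast-like wells, Ly6a and Clu were higher in the Dpt cluster on 5 of 5, and Ctgf was higher in the Col10a1 cluster on 4 of 5. The exception was FibCtrl 4, with Ctgf at 154 CPM in the Dpt and 33.8 CPM in the Col10a1 cluster, and Clu was nearly equal on FibΔZeb1 1, at 13.3 and 10.2 CPM. Some of these plates held only 1 to 3 wells of a cluster, and no test was made. The Col10a1 cluster supplied 19.6% and 8% of fibroblast-like wells on FibCtrl 1 and 4, and 66.7%, 30.8% and 7.69% on FibΔZeb1 1, 3 and 4. Pericyte-like wells had the highest mean Ctgf of the 5 classes over 5 plates. Ctgf was at 334 to 386 CPM on 2 FibCtrl plates and at 1257 to 7016 CPM on 3 FibΔZeb1 plates. These held 13 and 28 pericyte-like wells, and the genotypes were not tested in this class. The share of all genes without overlap was not computed for it, and was 19.2% in fibroblast-like wells with 2 plates against 3. The class joined 2 unlike clusters. The one led by Rgs5 (28 wells) held Ctgf at 851 CPM. The other (18 wells) held it at 3355 CPM, with 33.9% in 1 well. That cluster was led by Ctgf itself, with no marker of the class among its leading genes. Clu in the pericyte-like class was at 17.8 ± 23.1 CPM (SD, n = 5).

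Zeb1 was examined in fibroblast-like wells as the targeted gene. It was at 90.3 and 86.4 CPM on FibCtrl 1 and 4 and at 46.4, 48 and 26.5 CPM on FibΔZeb1 1, 3 and 4, so every deleted plate lay below both controls. The log2 fold change was -1.09 ± 0.30 (edgeR, adjusted p = 0.769). Over the 7963 genes tested the only call was Aldh1a2, 1 gene or 0.0126%. An unadjusted p under 0.05 was reached by 419 genes, and 24 were called by DESeq2.

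Of the 6 members tested in fibroblast-like wells 0 were called by edgeR. Cyr61 was the only member whose genotypes did not overlap, as did not those of 19.2% of all genes tested with 2 plates against 3. Its mean was 1108 ± 243 CPM over FibCtrl (SD, n = 2) against 505 ± 221 over FibΔZeb1 (SD, n = 3). The log2 fold change was -1.14 ± 0.44 (edgeR, adjusted p = 0.927). Without the filter on low counts the adjusted p was 0.0386, and with plates of at least 5 wells the log2 fold change was -0.15. Within the Dpt cluster alone Cyr61 was at 1268 and 940 CPM on FibCtrl 1 and 4 and at 853, 224 and 762 CPM on FibΔZeb1 1, 3 and 4. Within flow cells 1 and 2 the FibΔZeb1 minus FibCtrl difference of Cyr61 was -702 and -467 CPM.

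Ly6a, the surface protein Sca-1, was at 1208 and 3123 CPM in FibCtrl fibroblast-like wells and at 426, 1358 and 1451 CPM in FibΔZeb1 (log2 fold change -1.01 ± 0.59, edgeR adjusted p = 0.995). Ctgf had -0.45 ± 1.15, and its 2 plates over 1000 CPM, FibCtrl 1 and FibΔZeb1 1, belonged to opposite genotypes. Amotl2, Clu and Anxa1 lay between -0.25 and 0.21.

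In Epcam-positive wells, where all 8 plates entered, 0 of 10193 genes were called between the genotypes (0.0%). An unadjusted p under 0.05 was found for 178 genes by edgeR. With DESeq2 the only call was E030002O03Rik, which is no member. All 7 members tested had an adjusted p of 0.999 and overlapping genotypes, while 1.29% of all genes had genotypes that did not overlap. The log2 fold changes of FibΔZeb1 over FibCtrl were 1.55 ± 0.84 for Ctgf, 1.18 ± 1.06 for Clu, 0.90 ± 0.55 for Cyr61, 0.14 ± 0.28 for Anxa1, -0.17 ± 0.31 for Amotl2, -0.36 ± 0.42 for Ly6a and -0.36 ± 0.28 for Areg. The median over the 7 was 0.14, against 0.01 over all genes.

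Ly6a (chromosome 15, 74994877 to 74998031) in Epcam-positive wells was at 996, 1855, 959 and 2274 CPM on FibCtrl plates and at 924, 2208, 883 and 654 CPM on FibΔZeb1 plates. The 3 plates near 2000 CPM were FibCtrl 2, FibCtrl 4 and FibΔZeb1 2. Ly6a has close relatives in its gene family, and reads shared with them would be uncertain. Anxa1 (chromosome 19, 20373428 to 20390944), the membrane-binding protein annexin A1, was at 716, 1149, 660 and 1601 CPM on FibCtrl plates and at 1058, 1419, 1087 and 937 CPM on FibΔZeb1 plates.

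Clu was at 12.7, 344, 45 and 300.0 CPM on FibCtrl plates and at 74.7, 585, 896 and 51.3 CPM on FibΔZeb1 plates, the widest range of the abundant members. On FibCtrl 2 a single well held 190 of the 231 Clu transcripts. On FibΔZeb1 3 Clu was detected in 46 of 67 wells but unevenly, with the highest wells at 322, 212, 161 and 151 transcripts. Replicates 1 and 2 shared flow cell 1, and replicates 3 and 4 flow cell 2. The FibΔZeb1 minus FibCtrl difference had opposite signs in the 2 flow cells for 5 members, with Ly6a at 140 and -848 CPM, Cyr61 at 106 and -8.50, Anxa1 at 306 and -118, Amotl2 at 4.40 and -18.4, and Areg at -51.5 and 3.35. It was positive in both for Ctgf, at 14 and 39.9 CPM, for Clu, at 152 and 301, and for Ankrd1, at 4.53 and 4.57. The positive sign rested on FibΔZeb1 2 in flow cell 1 and on FibΔZeb1 3 in flow cell 2. For Ctgf, Clu and Ankrd1, FibΔZeb1 1 and FibΔZeb1 4 each lay below the FibCtrl mean of their flow cell. A single well of FibΔZeb1 3 held most of its Ctgf and Ankrd1 transcripts.

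**Figure D3:**
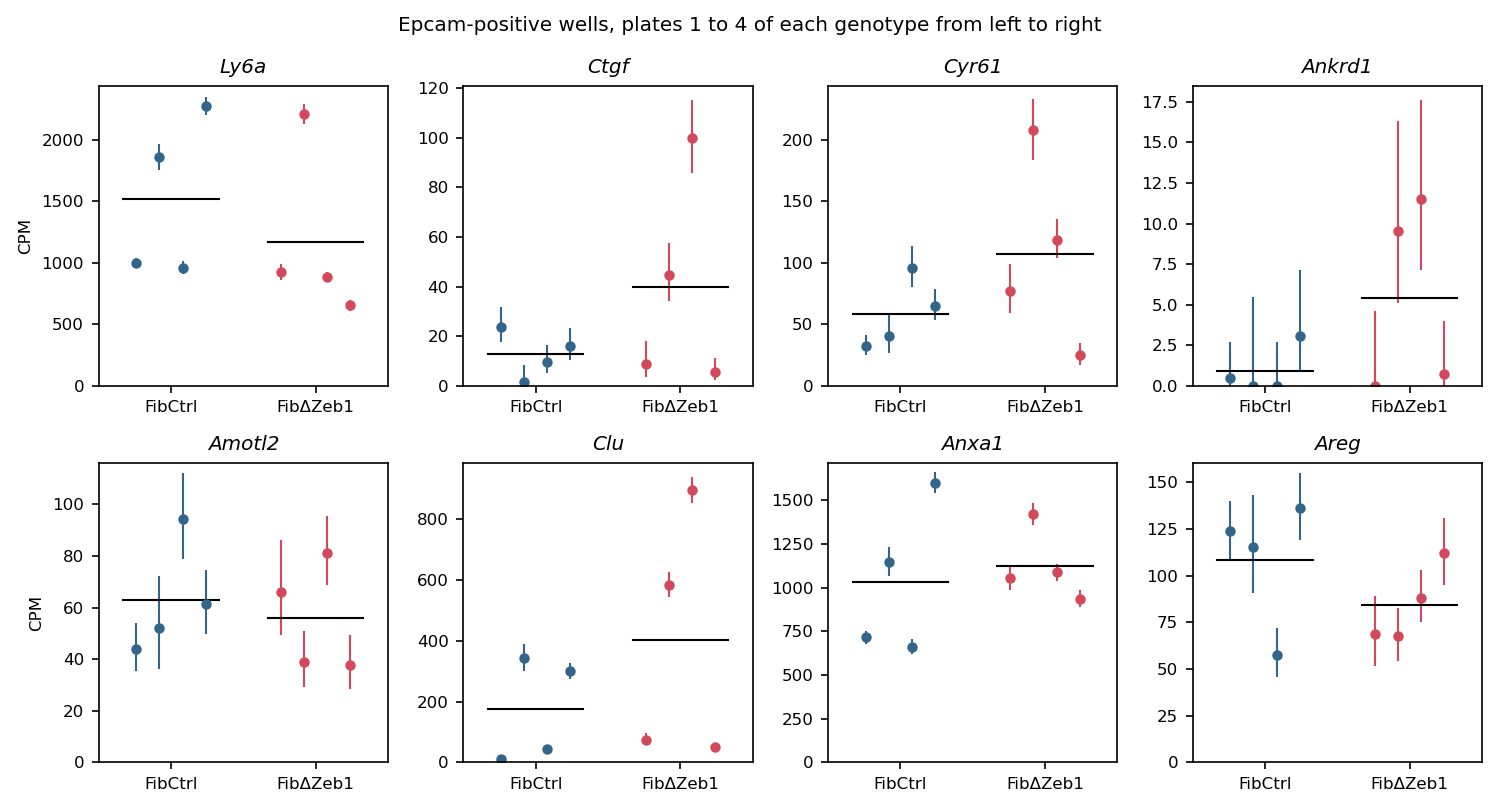
Level of each gene (CPM) in the Epcam-positive wells of each plate, with bars for the 95% exact Poisson interval and a line at the mean of each genotype (n = 4). The genotypes overlap in all 8 panels, and for Clu the 4 FibΔZeb1 plates span 51.3 to 896 CPM.

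Counted as the share of wells with at least 1 transcript, each well was first thinned to 5000 transcripts, which left out 52 of 378 Epcam-positive wells. Anxa1 was then detected in 83.3 ± 7.27% of wells and Ly6a in 74.8 ± 15.4% (SD over plates, n = 8). Clu was found in 32.5 ± 16.6%, Areg in 24.5 ± 9.04%, Amotl2 in 19.5 ± 9.82% and Cyr61 in 15.4 ± 10.1%. Ctgf was found in 5.57 ± 4.57% and Ankrd1 in 1.23 ± 1.86%. Unthinned, the shares were 88.8% for Anxa1, 91% for Ly6a, 54.3% for Clu, 38% for Areg, 45.1% for Amotl2, 37.2% for Cyr61, 18.4% for Ctgf and 3.58% for Ankrd1.

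Immune-like wells were set beside these shares, and whether member transcripts in them come from free RNA was not tested. Immune-like wells were shallower, and 538 of them were left out. Thinned alike over 7 plates, Ctgf was found in 5.76 ± 5.83% of them, close to its 5.57% in Epcam-positive wells. The comparison turned with depth, at 4.07% in Epcam-positive against 2.23% in immune-like wells at 2000 transcripts and 11.1% against 4.60% at 10000. The mean level of Ctgf was 26.2 ± 32.7 CPM in Epcam-positive and 10.9 ± 11.8 CPM in immune-like wells (SD, n = 8 each), with ranges over plates of 1.49 to 99.7 and 0 to 34.8 CPM that overlapped, and the difference was not tested. Ly6a was found in 54% and Anxa1 in 55.3% of immune-like wells, where both genes are also expressed. Amotl2 was found in 2.70 ± 2.14% and Cyr61 in 6.79 ± 6.81%. On FibCtrl 1, Ctgf was seen unthinned in 52.1% of Epcam-positive wells but at 4 or fewer transcripts each, 23.9 CPM, against 34.8 CPM in the immune-like wells of that plate. In fibroblast-like wells the thinned shares were 68.2% for Cyr61, 48% for Amotl2, 36.5% for Ctgf and 0.87% for Areg.

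**Figure D4:**
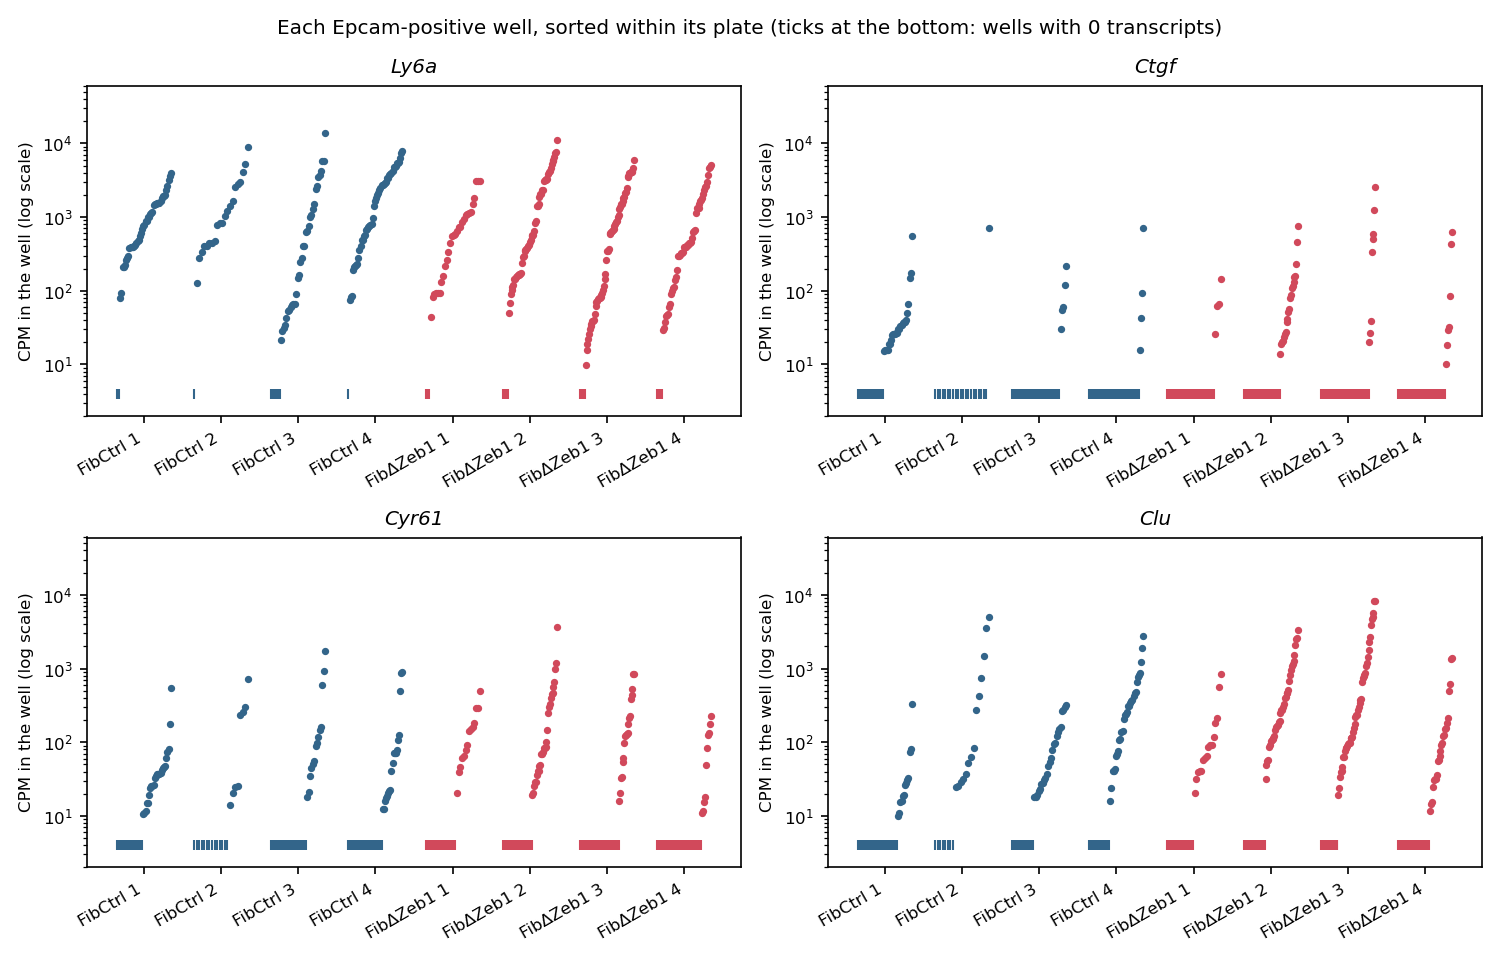
Level of Ly6a, Ctgf, Cyr61 and Clu (CPM, log axis) in every Epcam-positive well, sorted within its plate and coloured by genotype, with ticks at the bottom for wells with 0 transcripts. Ly6a forms a continuous range on each plate, whereas most wells have no Ctgf and few reach 1000 CPM.

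An Epcam-positive well held 2.57 ± 0.309 of the 8 genes on average at 5000 transcripts (SD over plates, n = 8). The genotypes had 2.61 ± 0.256 (FibCtrl) and 2.53 ± 0.391 (FibΔZeb1, SD, n = 4 each). Fibroblast-like wells held more, 3.53 ± 0.338 (SD, n = 5), mesothelial-like wells 3.22 ± 0.681 (SD, n = 3) and immune-like wells 1.46 ± 0.326 (SD, n = 7). Of 326 Epcam-positive wells 24 (7.36%) held at least 5 members and 0 held all 8. Without thinning, 5 of 378 wells (1.32%) held all 8, on 4 plates and at 28156 to 99318 transcripts. Of fibroblast-like wells, 24 of 107 (22.4%) held at least 5 members after thinning.

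**Figure D5:**
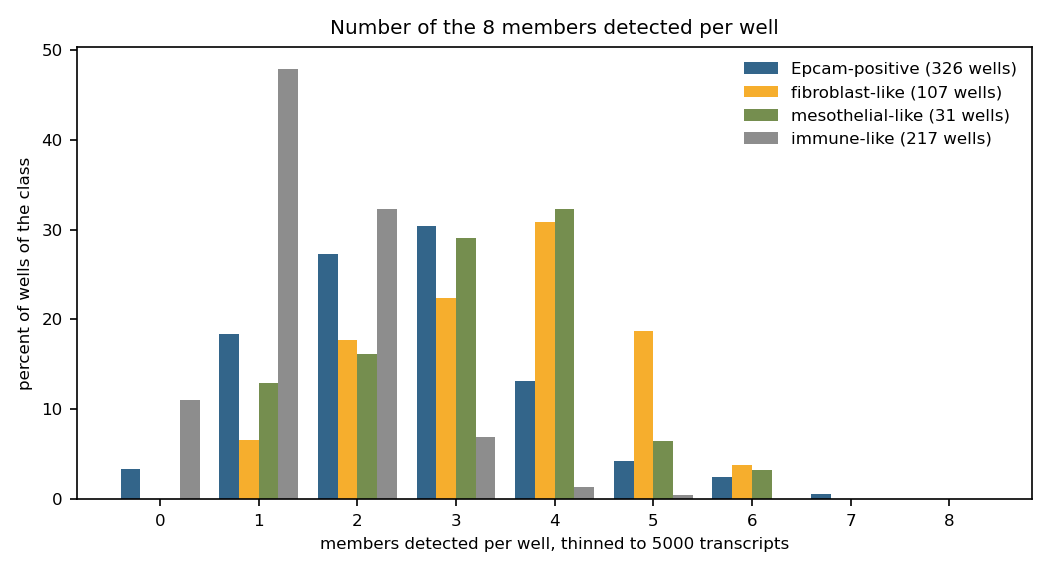
Percent of the wells of each class by the number of the 8 genes detected after thinning to 5000 transcripts. Epcam-positive wells most often held 3, fibroblast-like and mesothelial-like wells 4 and immune-like wells 1.

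Within the epithelium, the pair furthest above the product of its single shares in proportion to it, among pairs found together in at least 10 wells, was Ctgf with Amotl2. Both were detected in 3.50% of wells against a product of 1.11%, above it on 6 of 8 plates and below on 0, over 13 wells. Ly6a and Anxa1 were found together in 65.0% of wells against a product of 62.3%, above it on 6 of 8 plates. Clu and Amotl2, at 5.98% against 6.29%, were above on 4 and below on 4. Across the 378 wells and centred by plate, Ctgf correlated best with Ankrd1 (r = 0.51) and Amotl2 (r = 0.36), and Ly6a with Anxa1 (r = 0.43). Clu had r of 0.03 to 0.24 with the other members. These wells share plates and depth, so the values are descriptions.

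Among 9164 genes detected in at least 20% of Epcam-positive wells, the likeness of patterns was measured by the same correlation. Nearest to Ly6a were Ly6c1 (r = 0.64), Anxa3 and Tmsb10 (both r = 0.60). Nearest to Ctgf were Myof (0.46) and Col7a1 (0.45), and to Ankrd1 Msln (0.33), Myof (0.31) and Steap2 (0.29). Nearest to Clu were Cpe (0.52), Fn1 (0.39) and Fxyd3 (0.37), and to Anxa1 Tnfrsf12a (0.51), Anxa2 (0.50) and S100a11 (0.49). Areg was nearest to Hbegf (0.36), 1810011O10Rik (0.34) and F3 (0.33), Cyr61 to Arc (0.34), Chrnb1 (0.31) and Hbegf (0.30), and Amotl2 to Fam107b (0.36), Wnt7b (0.35) and Tnfrsf12a (0.33). In sparse counts the weaker of these values are no finding.

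The epithelial clusters differed in the list. The cluster led by 9030619P08Rik, Clca4 and Wfdc2 (93 Epcam-positive wells) held Ly6a at 2882 CPM, Anxa1 at 1894, Clu at 554, Areg at 180, Cyr61 at 152 and Ctgf at 81.3. The cluster led by E030002O03Rik, Tgm3 and Bpifb1 (117 wells) held Ly6a at 393 CPM, Anxa1 at 758, Clu at 366, Areg at 31.2, Cyr61 at 84.6 and Ctgf at 2.88. On the 5 plates with at least 5 wells of both, Ly6a, Ctgf, Amotl2 and Anxa1 were higher in the first on 5 of 5, and Cyr61, Clu and Areg on 4 of 5. The cluster led by Rspo3, Rnase1 and Igfbpl1 (66 wells) had Clu at 16.7 CPM but Areg at 119.

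The Hippo kinases, adaptors and TEAD factors were placed beside the members. Between genotypes 0 genes of the 5 pathway lists were called in either class. In Epcam-positive wells the smallest p of the crypt base list was that of Lgr5 (log2 fold change -0.97 ± 0.49, edgeR adjusted p = 0.999), and 10 of its 11 tested genes had values below 0. The median of that list was -0.30, that of other YAP targets -0.39 and that of fetal-type genes -0.20, against 0.01 over all genes. In fibroblast-like wells the smallest adjusted p values of the fetal-type list were 0.513 for Anxa3 and 0.532 for Ly6c1, a relative of Ly6a, at log2 fold changes of -1.30 and -2.10.

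Between Epcam-positive and fibroblast-like wells, 3 Hippo and TEAD genes were higher in the epithelium and 7 lower of 16 tested (edgeR, median of the list -0.12, against 0.07 over all genes). The angiomotin Amot (2.47 ± 0.39) and Tead2 (1.44 ± 0.32) were higher, and the kinase Lats2 (-2.51 ± 0.29) and Frmd6 (-1.79 ± 0.21) lower. Of 18 other YAP targets 1 was higher, Ajuba (0.95 ± 0.30), a call lost without the plate block and without any of 4 plates in turn (FibCtrl 4 and FibΔZeb1 1, 3 and 4), and 11 were lower, led by Col12a1 (-6.41 ± 0.61) and the actin-binding gene Tagln (-6.11 ± 0.45). Of 5 EGF family genes 2 ligands were higher, as Areg was, with Tgfa at 4.48 ± 0.51 and Hbegf at 2.59 ± 0.38, while the receptor Egfr was lower at -2.24 ± 0.28. Of 10 crypt base genes 7 were higher and 1 lower, with Rnf43 at 5.89 ± 0.43, Lgr5 at 4.52 ± 0.52 and Cd44 at -0.68 ± 0.24, a call lost without the plate block and without FibΔZeb1 1, 3 or 4. Of 18 fetal-type genes 7 were higher, led by Cldn4 (4.76 ± 0.31) and Ly6d (4.39 ± 0.64), and 5 lower, led by Il33 (-6.56 ± 0.55) and Spp1 (-5.84 ± 0.43).

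Against mesothelial-like wells the epithelium was higher for 1 and lower for 3 of 17 Hippo and TEAD genes, with Amot at 4.11 ± 0.64, Frmd6 at -1.51 ± 0.33 and Wwtr1, which encodes TAZ, at -1.51 ± 0.43 (edgeR, adjusted p under 0.05 for each). Of 19 other YAP targets 1 was higher, Gadd45a (2.61 ± 0.42), and 9 lower, led by the receptor kinase Axl (-6.16 ± 0.36) and Col12a1 (-5.59 ± 0.59). Of 19 fetal-type genes 10 were higher and 4 lower, with Cldn4 at 5.57 ± 0.53, Il33 at -6.42 ± 0.48 and Msln at -2.92 ± 0.61, and Ly6c1 had 402 transcripts against 1. Of 10 crypt base genes 9 were higher, led by Rnf43, with 647 transcripts against 0, at least 48.3-fold higher against a floor of 3 transcripts over the class, and Notum (3.84 ± 0.40). The EGF family had 0 higher and 2 lower, Ereg (-2.55 ± 0.76) and Egfr (-1.57 ± 0.40). Between the stromal classes the called list genes were Col12a1 (-3.56 ± 0.67), Msln (3.96 ± 0.94) and Spp1 (-6.56 ± 1.04). Msln is also among the markers by which the mesothelial-like class was named, so its calls in both comparisons follow in part from that choice. Each list gene named here as called against or between mesothelial-like wells rests on 3 plates, and leaving out 1 plate lost the calls of Wwtr1, Egfr, Ereg and Msln in the former and Col12a1 and Msln in the latter comparison.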

How the data were processed

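Single cells of 8 colon tumours were profiled by SORT-seq. Per the labels and methods, reads were aligned with BWA to the GRCm38 transcriptome, and the labels also list Cell Ranger 2.1.1. The deposited values were estimated counts per gene and well, UMI counts that the authors corrected for UMI collisions, not scaled to depth; 86.3% of nonzero values were whole. Whether counting used the strand was not given in the sources used here.

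The 89 spike-in and 37 mitochondrial rows were left out. Wells had at least 500 transcripts and a mitochondrial share within 3 median absolute deviations above the plate's median. Leiden clustering (2000 variable genes, 20 components, 15 neighbours, resolution 1.5, leidenalg 0.10.2, Python 3.11.15) ran without the 8 genes and without pathway-list genes that are not markers. The resolution and naming rule were set after the data were seen, and 0 wells were identical between plates. No doublet caller was run, since 1 cell was sorted per well. Fibroblast-like wells with at least 2 Epcam or Ptprc transcripts were removed, after the study's practice, and mesothelial-like wells were not filtered this way.

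Counts were summed per plate and class, rounded and tested with edgeR 4.0.16 (R 4.3.3, quasi-likelihood, TMM, expression filter). Plates needed 10 wells of a class, or 3 for the comparisons with mesothelial-like wells. DESeq2 1.42.0 was an alternative. In simulated data with 200 changed genes, a log2 change of 1.5 was recovered for 73% of genes among 10388 in the comparison of genotypes in Epcam-positive wells and for 46% among 7903 in fibroblast-like wells. The simulation gave every gene the same fixed spread and changed only genes with enough counts in every library. These shares therefore do not carry over to members with a wider spread between plates or with few counts. Intervals cover counting error only. P-values between genotypes measure the spread between mice. Those between classes, with plate as a block, measure how the class difference varied between plates. Gene positions are from GENCODE M21.

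Genes named are all 8 members, Zeb1, per list the 2 called genes with the largest change in each direction (or the 2 smallest p), and the 3 most alike genes per member. The organoids' altered genes and 1 gene that the rule names are not reported here. The members and lists were chosen with earlier results of these data known. Aldh1a2 and E030002O03Rik in the counts were named after their values were seen.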

Additional observations from a re-analysis of the deposited data

Results flagged for a closer look

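Over 32 sets of 4 plates tested (CPM and thinned share of each gene in Epcam-positive wells of each genotype), 2 held a plate far from the others, and chance flags about 1 in 20 such sets. Both concern Ankrd1 on FibCtrl 4. Its level there was 3.07 CPM, against 0 to 0.488 CPM on the other 3 FibCtrl plates. Its share of wells after thinning was 4.55%, against 0% on the other 3. These values rest on 5 transcripts.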

How the results depend on the processing

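Genes called between genotypes in Epcam-positive wells numbered 1 with DESeq2 and 0 under the other alternatives. In fibroblast-like wells, against 1, there were 24 with DESeq2, 295 without the low-count filter, 14 with flow cell as a covariate, 0 without the mitochondrial filter, 0 with Ptprc or Epcam wells kept, and 0 to 0 without each plate. Plates with the same replicate number correlated at 0.42, 0.26, 0.26 and 0.09, and those with different numbers at -0.33 to 0.27. FibCtrl 4 correlated best with FibΔZeb1 3 (0.27). These values do not settle whether the numbers pair the mice. With the replicate block 20 genes were called in fibroblast-like wells. Against mesothelial-like wells 1105 to 2104 genes were called without each plate. Between stromal classes the count was 94 without the filter, 37 with marker classes and 30 to 57 without each plate. Members per well were 1.83 at 2000 and 3.24 at 10000 transcripts. Marker classes without clustering, and mesothelial-like wells without Ptprc or Epcam, were chosen after seeing the data.

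Signs turned for values with no call. Without each plate, in Epcam-positive wells Amotl2 ranged from -0.37 to 0.09, Anxa1 from -0.03 to 0.38 and Hbegf from -0.23 to 0.62 between genotypes; in fibroblast-like wells Ctgf from -2.55 to 1.65, Amotl2 from -0.07 to 0.56, Clu from -1.72 to 0.69 and Hbegf from -0.10 to 0.94. There Amotl2 was -0.10, Clu -0.24 and Hbegf -0.10 with the block, Clu -0.57 with flow cell, and Smoc2 -0.54 without the mitochondrial filter. Epcam-positive over fibroblast-like Clu ranged from -0.65 to 1.52. Over mesothelial-like wells Anxa1 ranged from -0.09 to 0.39, and Amotl2 was 0.30 without Ptprc or Epcam wells. Between stromal classes, without each plate, Cyr61 ranged from -1.20 to 1.38, Amotl2 from -1.18 to 1.75, Anxa1 from -0.50 to 1.08, Wwtr1 from -1.08 to 0.02 and Egfr from -0.79 to 0.80. There Cyr61 was 0.20 without the filter and with marker classes, Amotl2 0.12 with DESeq2 and 0.29 without the filter, Anxa1 -0.40 without Ptprc or Epcam wells and -0.23 with marker classes, and Egfr 0.24 without the filter and 0.06 with marker classes. Causes were not tested. Over single values, 961 alternatives kept direction and side of the threshold or, for thinned shares, lay within the SD over plates. A further 36 turned sign, 33 lost a call and 8 gained one, and 6 thinned shares moved by more.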
